A study of Mus musculus with 60 samples.

Results

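Skor1 and Rtp1 are 2 of the 24508 genes in the deposited expression table of hippocampus from wild-type (WT) and R6/1 mice. They were chosen for their measured levels, which are close to 0 in every WT library and above 0.6 RPKM in every R6/1 library. RPKM counts reads per kilobase of gene, scaled for sequencing depth, so values of different genes can be set side by side. Since their levels chose them, the difference between genotypes in these 2 genes is a description, without a test. R6/1 mice model Huntington's disease: their transgene holds the start of human huntingtin, exon 1 with its promoter, and a lengthened CAG repeat. All animals were 30 weeks old and on a mixed CBA and C57BL/6 background. Messenger RNA from frozen hippocampal tissue was sequenced in 9 WT and 9 R6/1 biological replicates, each replicate 1 library. R6/1 is a single transgenic line, and the tissue was not sorted, so fewer cells of a type and less RNA per cell cannot be told apart in these values.

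Skor1 encodes a transcriptional co-repressor of the Ski family. Ski family proteins bind Smad proteins, the transcription factors through which bone morphogenetic proteins (BMP) and transforming growth factor beta (TGF-beta) act on genes, and silence Smad target genes. In the embryonic spinal cord Skor1 works with the homeodomain protein Lbx1 in dorsal interneurons. Rtp1 encodes a receptor transporting protein that brings odorant receptors to the cell surface and is known from olfactory sensory neurons.

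Skor1 (ENSMUSG00000022245.9) lies on chromosome 9 from 62985977 to 62996768 on the minus strand of build NCBIM37, which is also called mm9. Its annotation holds 3 coding transcripts of 9 exons each. They start at 62996768, 62994818 and 62994787, and all 3 starts are also starts of RefSeq promoter windows. The 250 bases upstream of the first 2 starts are shown because they are the stretches of DNA from which Skor1 transcripts would begin. They were taken from RefSeq promoter windows of build GRCm38.p6 and each matched chromosome 9 of NCBIM37 exactly once. The sequences run 5′ to 3′ along the gene, with every CG dinucleotide, the pair of bases that carries DNA methylation in mammals, in capitals.

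Skor1 upstream of the outer start, NCBIM37 chr9:62996769-62997018, minus strand: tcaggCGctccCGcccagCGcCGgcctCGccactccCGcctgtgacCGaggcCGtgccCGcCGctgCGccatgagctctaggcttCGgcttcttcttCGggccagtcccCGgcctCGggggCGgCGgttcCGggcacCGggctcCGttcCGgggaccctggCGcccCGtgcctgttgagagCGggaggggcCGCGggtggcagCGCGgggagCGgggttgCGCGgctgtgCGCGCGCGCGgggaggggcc

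Skor1 upstream of the inner start, NCBIM37 chr9:62994819-62995068, minus strand: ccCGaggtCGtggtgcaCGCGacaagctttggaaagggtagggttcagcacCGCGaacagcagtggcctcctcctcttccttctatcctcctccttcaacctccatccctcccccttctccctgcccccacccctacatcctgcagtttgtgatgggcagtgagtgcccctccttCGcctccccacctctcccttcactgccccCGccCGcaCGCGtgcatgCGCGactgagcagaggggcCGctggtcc

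The inner stretch lies within the span of the longest transcript. The search for CG covered the printed strand, and CG reads the same on both strands. The outer stretch holds 36 CG and the inner one 14. The RefSeq windows of 300 bases, which add 50 bases after the start, hold 46 and 17 CG. The outer window exceeds 98.35% of the 32851 mouse windows in its number of CG, the inner one 68.59%, and the median window holds 7. At least 1 CG is in 94.6% of windows. Rtp1 (ENSMUSG00000033383.6) lies on chromosome 16 from 23429206 to 23434033 on the plus strand of NCBIM37, with 1 coding transcript of 2 exons.

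In WT hippocampus Skor1 was at the edge of detection. Its lowest WT library had 0 reads, its median was 0.0666 RPKM and its highest, replicate 1, had 0.145 RPKM. In R6/1 the lowest library, replicate 5, had 2.72 RPKM, the median was 4.09 RPKM and the highest, replicate 1, had 4.98 RPKM. All 9 R6/1 libraries lay above all 9 WT libraries, and the lowest R6/1 value was 18.8 times the highest WT value. The means were 0.0668 ± 0.0448 RPKM in WT and, in R6/1, 4.11 ± 0.747 (SD, n = 9 for both), a ratio of 61.6.

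Those WT values rest on few reads. The 9 WT libraries together held 33 Skor1 reads (exact 95% Poisson interval 22.7 to 46.3, counting error only), between 0 and 7 in a library. The 9 R6/1 libraries held 2216 reads, between 149 and 311 in a library. The reads behind each library on all genes numbered 12299434 to 16457022 in WT and 13260311 to 16736544 in R6/1, so depth was similar in both genotypes. By its mean, Skor1 exceeded 28.3% of all genes of the table in WT and 60.2% in R6/1.

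Rtp1 showed the same separation with a wider spread in R6/1. In WT its lowest library had 0.0222 RPKM, its median was 0.103 RPKM and its highest, replicate 1, had 0.277 RPKM. In R6/1 the lowest library, replicate 5, had 0.601 RPKM, the median was 3.22 RPKM and the highest, replicate 4, had 4.71 RPKM. The groups did not overlap, but replicate 5 came close to WT, at 2.17 times the highest WT value. Without replicate 5 the lowest R6/1 library had 2.29 RPKM. The means were 0.113 ± 0.0750 RPKM in WT and, in R6/1, 3.12 ± 1.29 (SD, n = 9 for both), a ratio of 27.6. The WT libraries held 45 Rtp1 reads in all (exact 95% Poisson interval 32.8 to 60.2), between 1 and 11 in a library, and the R6/1 libraries 1381, between 27 and 225.

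**Figure D1:**
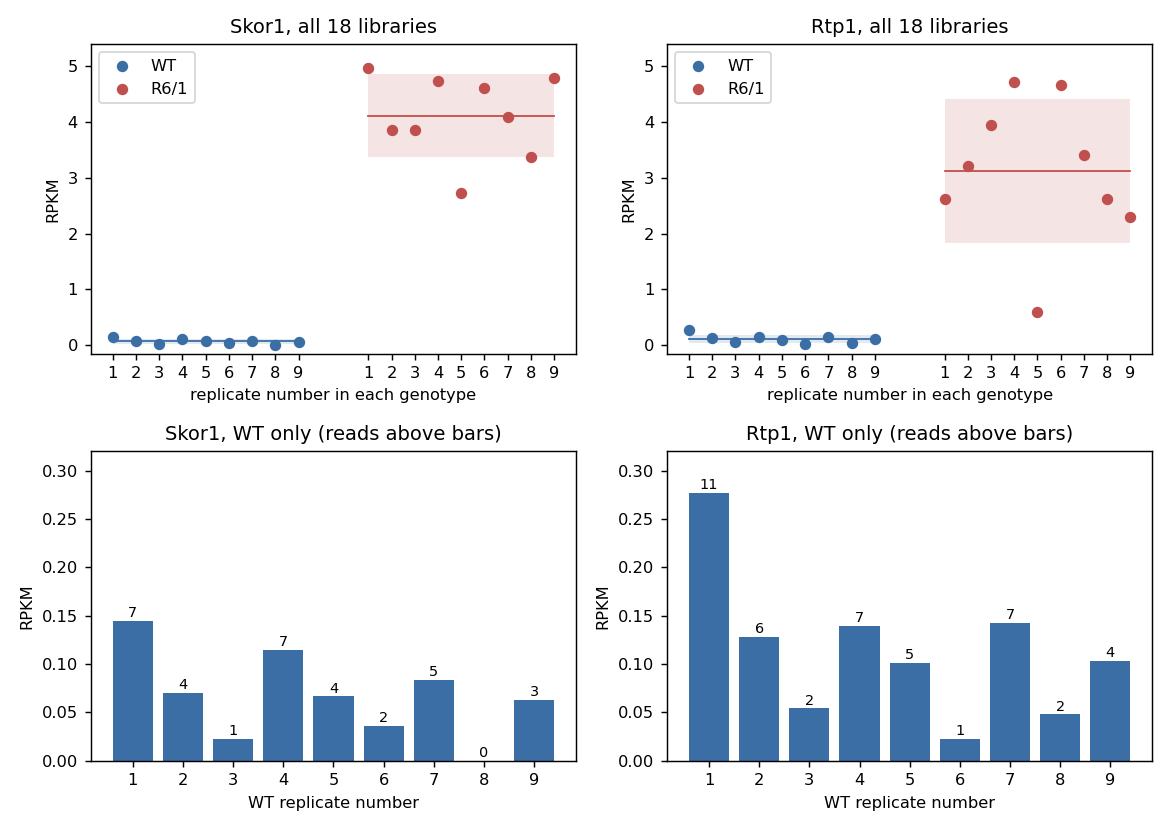
RPKM of Skor1 and Rtp1 in each of the 18 libraries (top; lines are means and bands 1 SD of 9 libraries) and in the WT libraries alone on an enlarged axis, with the number of reads above each bar (bottom). The R6/1 libraries lie above all WT libraries for both genes, and R6/1 replicate 5 is the lowest R6/1 library of both.

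Such a separation is shared by many genes. All 9 R6/1 libraries lay above all 9 WT libraries for 5.5% of the 14446 genes whose mean over all libraries reached 0.5 RPKM. Counting both directions, the genotypes did not overlap for 11.9% of these genes. What the rule used is the size of the difference. In the authors' deposited table, Skor1 had a log2 fold change of 4.67 (SE 0.174), rank 2 from the highest among the 20791 genes with a value. Rtp1 had a log2 fold change of 2.73 (SE 0.226) in the authors' deposited table and rank 14. The log2 ratio of the RPKM means was larger, 5.94 for Skor1 and 4.79 for Rtp1. By that ratio Skor1 ranked 6 and Rtp1 10 among 13024 genes with an R6/1 mean of at least 1 RPKM and WT above 0.

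Rtp1 varied more between R6/1 libraries than Skor1 did. The coefficient of variation over the 9 R6/1 libraries was 18.2% for Skor1 and 41.2% for Rtp1. Counting error alone gives 6.37% for Skor1 and 8.07% for Rtp1 at these read numbers. Of the 2152 genes with an R6/1 mean within 1.5-fold of that of Rtp1, 96.3% had a lower coefficient of variation, and the median was 13.0%. For Skor1 the share was 83.2% of 2487 genes. Without replicate 5 the coefficient of variation was 13.3% for Skor1 and 27.1% for Rtp1. Skor1 was the higher of the pair in 7 of 9 R6/1 libraries and in 1 of 9 WT libraries.

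Reads of a relative could in principle be counted for either gene, so shared sequence was searched. None of the 3793 stretches of 36 bases in Skor1 coding transcripts occurred in another gene's coding transcripts. For Rtp1, 13 of 3085 (0.421%) occurred elsewhere, all in Rtp2. No annotated gene with a unique name overlapped either gene on either strand.

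Whether both genes vary together among R6/1 libraries was examined next. Within R6/1, log2(RPKM + 0.5) of Skor1 and Rtp1 had a Pearson r of 0.69 (two-sided exact permutation p 0.0474, n = 9) and a Spearman rho of 0.18 (two-sided exact permutation p 0.644, n = 9). The Pearson value rests on replicate 5, the lowest library of both genes. Without it r was 0.0914 (two-sided exact permutation p 0.830, n = 8), and without the 2 libraries farthest from the median of Skor1, replicates 5 and 1, r was 0.313 (two-sided exact permutation p 0.477, n = 7). Replicates 1 and 9 had the highest Skor1 values, 4.98 and 4.79 RPKM, but 2.61 and 2.29 RPKM of Rtp1, less than its median.

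Within WT both genes also varied together, on very few reads. There r was 0.90 (two-sided exact permutation p 0.000708, n = 9) and rho 0.92 (two-sided exact permutation p 0.00131, n = 9). Adjusted over the relations in both genotypes, 2 in all, the permutation p of r was 0.00142 in WT and 0.0474 in R6/1. Without WT replicates 1 and 8, the farthest from the Skor1 median, r was 0.86 (two-sided exact permutation p 0.0121, n = 7). Replicate 1 held 7 Skor1 and 11 Rtp1 reads, replicate 4 held 7 of each, and replicate 8 held 0 and 2. The WT relation was computed after the R6/1 one had been seen, and a difference between the 2 values of r was not tested.

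**Figure D2:**
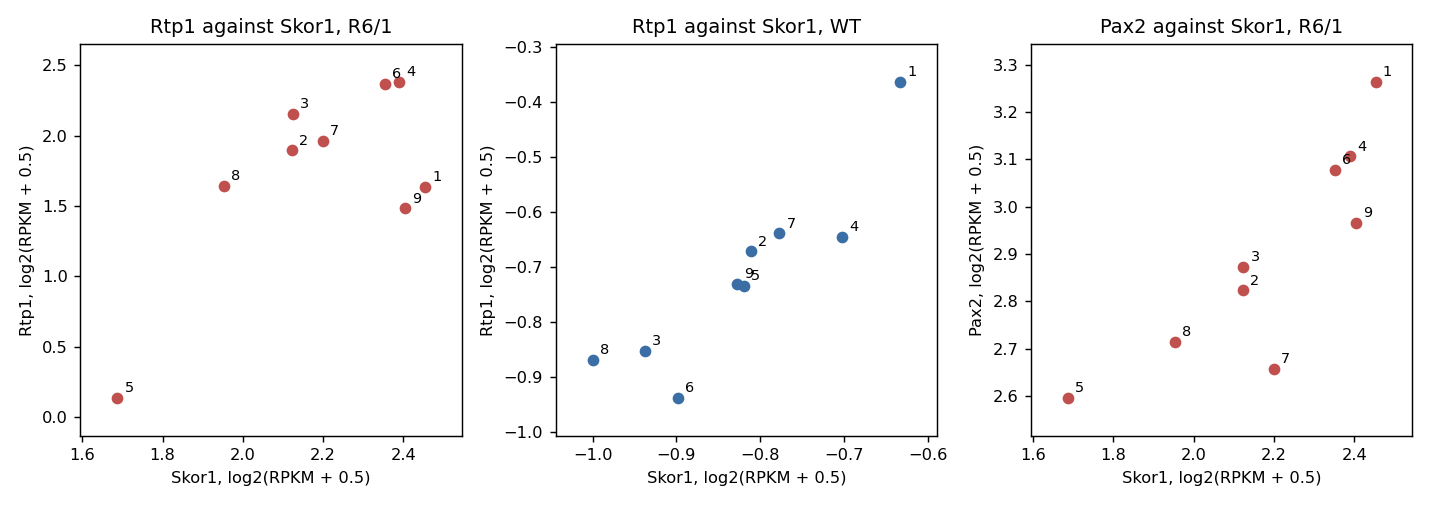
Rtp1 against Skor1 within R6/1 (left) and within WT (middle), and Pax2 against Skor1 within R6/1 (right), all as log2(RPKM + 0.5), 1 point per library with its replicate number. Replicate 5 stands alone at the lower left of the first panel, and the middle panel rests on 0 to 11 reads per point.

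R6/1 replicate 5 also stood at an end of the R6/1 range on several marker lists. The summed RPKM of 6 astrocyte markers was 838.8 there against 569.2 to 692.6 in the others, that of 6 oligodendrocyte markers 1020 against 588 to 995.6, that of 6 microglia markers 122.1 against 76.8 to 104.1, and that of 5 endothelial markers 71.6 against 47.4 to 59.9. It was the highest of the 9 R6/1 libraries on these 4 lists and on the Purkinje cell markers (94.3 against 77 to 93.6), and the lowest on the dorsal spinal interneuron markers (6.02 against 6.22 to 10.0). Its inhibitory neuron markers, at 276.6 against 215.8 to 282.9, and its choroid plexus markers, at 125.4 against 41.2 to 1756, lay within the range of the others. Its 9 pyramidal and granule neuron markers summed to 205.7 RPKM, within the range of the others (193.2 to 247). It held 14020742 reads, within the range of the other R6/1 libraries.

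Within R6/1, the r of Rtp1 with the mean log2 level of the endothelial, microglia, astrocyte and oligodendrocyte lists was negative. It was -0.90 for endothelial markers (two-sided exact permutation p 0.00415, adjusted p 0.108 over 26 relations). For microglia markers it was -0.81 (adjusted permutation p 0.111). For astrocyte markers it was -0.80 and for oligodendrocyte markers -0.65 (adjusted permutation p 0.177 for both). The corresponding rho values were -0.70, -0.72, -0.53 and -0.63, with adjusted permutation p between 0.395 and 0.548. With the other lists the r of Rtp1 ran from -0.34 for Purkinje cell markers to 0.64 for dorsal spinal interneuron markers. The adjusted permutation p of these r values was 0.563 for Purkinje cell and 0.177 for dorsal spinal interneuron markers. Skor1 had an r of -0.80 with the endothelial markers (adjusted permutation p 0.111) and of 0.64 with pyramidal and granule neuron markers (adjusted permutation p 0.243). None of the 26 relations passed an adjusted p of 0.05, by r or by rho; 6 of the 26 had an unadjusted Pearson p under 0.05. Without replicate 5 the r of Rtp1 was -0.68 with endothelial, -0.56 with microglia, -0.53 with oligodendrocyte and -0.22 with astrocyte markers. That of Skor1 was then -0.48 with endothelial and 0.53 with pyramidal and granule neuron markers. The r of Skor1 changed sign for astrocyte (-0.44 to 0.53), microglia (-0.34 to 0.41), Purkinje cell (-0.09 to 0.67) and choroid plexus markers (0.14 to -0.20). Its highest values without replicate 5 were 0.79 with olfactory transduction genes and 0.73 with inhibitory neuron markers (adjusted permutation p 0.482 for both). With all R6/1 libraries, the r with the total of reads was 0.397 for Skor1 and 0.270 for Rtp1 (adjusted permutation p 0.477 and 0.694). The part that the share of non-neuronal RNA takes in the spread of Rtp1 was not tested.

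A search over 14443 other genes that passed the filter on low values and varied within R6/1 gave 0 genes whose r with Skor1 passed an adjusted p of 0.05, and 0 for Rtp1 (two-sided exact permutation, Benjamini-Hochberg adjustment; 0 by rho as well). At an unadjusted permutation p under 0.05 there were 1257 genes for Skor1 (8.7%) and 2023 for Rtp1 (14%). Without replicate 5 the count for Rtp1 was 789 (5.46%) and for Skor1 1075 (7.44%). The genes named next are the 5 highest and 5 lowest by r, and are a description of 9 libraries.

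The highest r with Skor1 belonged to Atp6v1a, a subunit of the vacuolar proton pump, at 0.95, followed by Fam131a, 1600014C10Rik, Wdr6 and the kinase gene Nek6 at 0.94. The lowest belonged to Cobll1 at -0.96, and Mmrn2, the Notch ligand gene Dll4 and Pecam1 were also among the 5 lowest. Mmrn2, Dll4 and Pecam1 are known from endothelial cells. Over the 8 libraries without replicate 5 these 10 relations lay between 0.85 and 0.91 and between -0.93 and -0.87. Replicate 5 was the lowest R6/1 library of the 5 genes with the highest r and the highest of the other 5.

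The highest r with Rtp1 belonged to Gm11696 at 0.98, followed by the RNA helicase gene Ddx25, Rasd1, a small GTPase gene that responds to glucocorticoids, the sulfotransferase gene Sult1a1 and the casein kinase gene Csnk1a1 at 0.96. The lowest belonged to Lrp4 at -0.98, a receptor known from the neuromuscular junction, followed by the kinase gene Map4k4, the fatty acid elongase gene Elovl6, Erbin and Mgll, the lipase of 2-arachidonoylglycerol, at -0.97. Replicate 5 lay at an extreme here too, and without it these 10 relations lay between 0.79 and 0.93 and between -0.92 and -0.85. Sult1a1, for instance, was at 2.28 RPKM there and between 7.16 and 15.6 RPKM in the other R6/1 libraries, and Lrp4 at 7.07 RPKM against 3.33 to 4.61. No gene appeared on both lists.

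Limits set around the levels of the pair were applied to the whole table. A WT mean of at most 0.25 RPKM was found for 8926 genes, and 17 of them had an R6/1 mean of at least 1 RPKM. In 15 of the 17, or 0.168% of the 8926, the genotypes did not overlap. Among these 15, whose R6/1 means ran from 1.02 to 7.03 RPKM, Skor1 had the second highest R6/1 mean and Rtp1 the third, after Pax2. The other 13 included the transcription factor genes Pax2, Hoxa5, Barx1, Hoxd8, En1, Foxd2, Gsx2, Hoxd9 and Dlx4 and the RNA genes Igf2os, Mira and Dlx4os. Hotairm1 and Pou4f1 met the levels but had overlapping libraries. Dlx4 was just inside the R6/1 limit, at a mean of 1.02 RPKM, and the highest WT mean of the 15 was 0.125 RPKM, of Gsx2. In the opposite direction, 7 genes had an R6/1 mean of at most 0.25 RPKM and a WT mean of at least 1 RPKM.

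Of the 13 other genes that met the same levels, Pax2 and En1 had some of the highest r with Skor1 over the R6/1 libraries. Pax2, a paired-box transcription factor of spinal inhibitory interneurons, had an r of 0.85 with Skor1 (two-sided exact permutation p 0.00308, adjusted p 0.0580 over 26 relations, n = 9) and a rho of 0.85 (two-sided exact permutation p 0.00607, adjusted p 0.0790, n = 9). En1, the engrailed homeodomain factor, had an r of 0.70 (adjusted permutation p 0.321). None of the 26 relations passed an adjusted p of 0.05; 3 had an unadjusted Pearson p under 0.05, all with Skor1. Without replicate 5 the r of Skor1 was 0.83 with Pax2 and 0.79 with En1.

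The r of Rtp1 with the 13 genes ran from -0.47 for Dlx4os to 0.51 for Pax2, with a median of 0.298. Without replicate 5 the median was -0.0767 and 4 of 13 were positive, where 11 of 13 had been. For Skor1 all 13 were positive with all libraries, with a median of 0.494, and 12 of 13 without replicate 5, with a median of 0.397. In WT the 13 genes together held 13 to 35 reads per library, and their summed RPKM had an r of -0.16 with Skor1 and -0.36 with Rtp1 (two-sided exact permutation, adjusted p 0.678 for both, n = 9). Replicate 1, the highest WT library of Skor1 and Rtp1, had 13 of these reads, the lowest number.

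**Figure D3:**
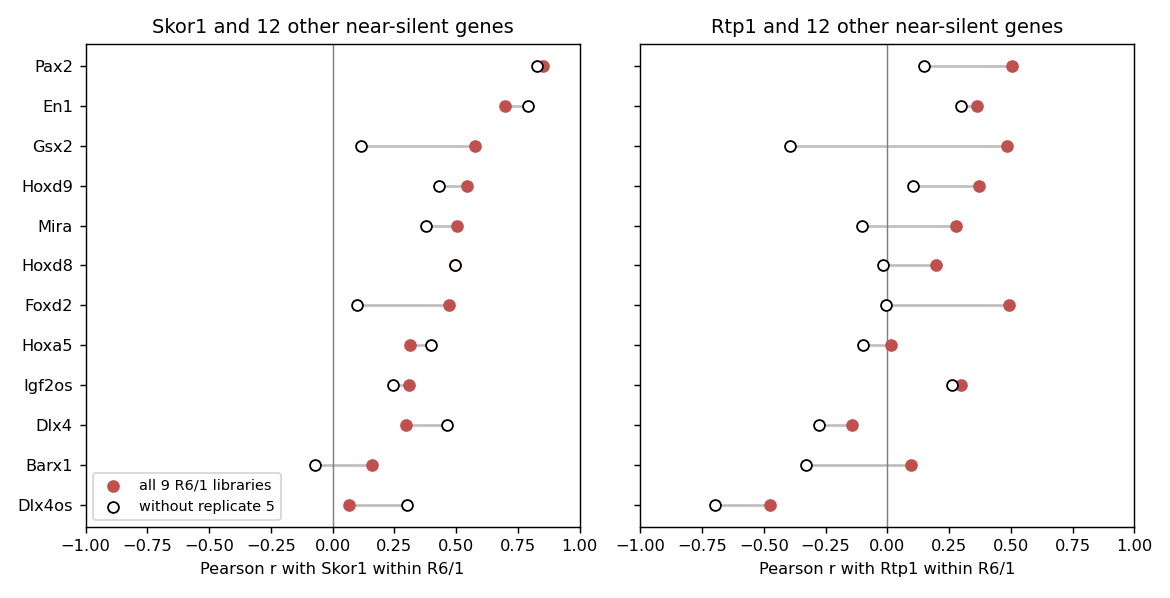
Pearson r of Skor1 (left) and Rtp1 (right) with 12 of the 13 other genes that met the same levels, over all 9 R6/1 libraries (filled) and over 8 without replicate 5 (open). Pax2 and En1 have an r of 0.698 to 0.850 with Skor1 in both, while the r of Rtp1 with Gsx2 is 0.48 with replicate 5 and -0.39 without it.

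The surrounding genes were compared to see how far the difference reaches along the chromosome. Of the annotated genes whose start lies within 500 kb of the start of Skor1 or Rtp1, 17 passed the filter on low values. The test was limma on log2(RPKM + 0.5) with Benjamini-Hochberg adjustment over all 14446 tested genes, which called 48.3% of them at an adjusted p under 0.05, 24.8% as higher and 23.5% as lower in R6/1. Of the 17 neighbours, 8 were higher and 4 lower in R6/1, and 14 differed by less than 0.5 on the log2 scale. Their median log2 difference was 0.08 against 0.00363 over all tested genes.

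Beside Skor1, 3 of 9 tested neighbours rose, 3 fell and 3 did not pass. The nearest, Pias1, a SUMO ligase gene 168 kb downstream, rose from 14.2 ± 0.629 to 16.0 ± 1.15 RPKM (SD, n = 9 each; log2 difference 0.16, SE 0.0423, limma adjusted p 0.00303). Map2k5, a kinase gene 229 kb upstream, was at 14.1 RPKM in WT and 14.6 in R6/1 and did not pass (limma adjusted p 0.357), but the gene Map2k5 passed under scaling by each library's own read total (limma adjusted p 0.0228). Fem1b and 2300009A05Rik rose by 0.16 and 0.23 on the log2 scale, and Aagab and Cln6 fell by 0.13 and 0.26. The calls of the lysosomal gene Cln6 and of Aagab were lost under scaling by each library's own read total (limma adjusted p 0.0644 and 0.179). In the authors' deposited table the gene 2300009A05Rik had an adjusted p of 0.0557. The integrin gene Itga11, 471 kb downstream, fell from 0.746 ± 0.187 to 0.288 ± 0.0483 RPKM, with no overlap (log2 difference -0.65, limma adjusted p 6.62e-06). Itga11 passed the filter of 0.5 RPKM only through its WT level, which limits this call. Gm10653 and Calml4 did not pass, and Iqch was below the filter at 0.0984 RPKM in WT and 0.0430 in R6/1. Smad3, a TGF-beta effector whose start lies 609 kb upstream of Skor1, fell from 17.6 ± 1.52 to 9.68 ± 0.489 RPKM, with no overlap (log2 difference -0.82, SE 0.0480, limma adjusted p 5.05e-11). Smad6, 873 kb upstream, was at 0.748 RPKM in WT and 0.752 in R6/1.

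Beside Rtp1, 5 of 8 tested neighbours rose, 1 fell and 2 did not pass. Rtp4, a relative of Rtp1 known as an interferon-stimulated gene, lies 181 kb downstream and rose from 0.919 ± 0.616 to 1.87 ± 0.446 RPKM, with overlapping libraries (log2 difference 0.81, SE 0.177, limma adjusted p 0.000819). Its highest WT library, replicate 5, had 2.45 RPKM and the next 1.02. Rfc4, a replication factor subunit, rose from 1.46 ± 0.341 to 2.09 ± 0.289 RPKM (log2 difference 0.41). Masp1, St6gal1 and Eif4a2 rose by 0.25, 0.13 and 0.08 on the log2 scale. The call of the gene St6gal1 was lost without the filter on low values (limma adjusted p 0.0501) and that of the gene Eif4a2 in limma without a trend (adjusted p 0.0593). Sst, the somatostatin gene of a class of inhibitory neurons, lies 462 kb downstream and fell from 195.5 ± 25.3 to 86.7 ± 14.1 RPKM, with no overlap (log2 difference -1.17, limma adjusted p 3.90e-09). The small nucleolar RNA genes Snord2 and Snora81 did not pass. Hrg, Kng1, Kng2 and Adipoq were below the filter, each with a mean of at most 0.0225 RPKM in both genotypes.

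**Figure D4:**
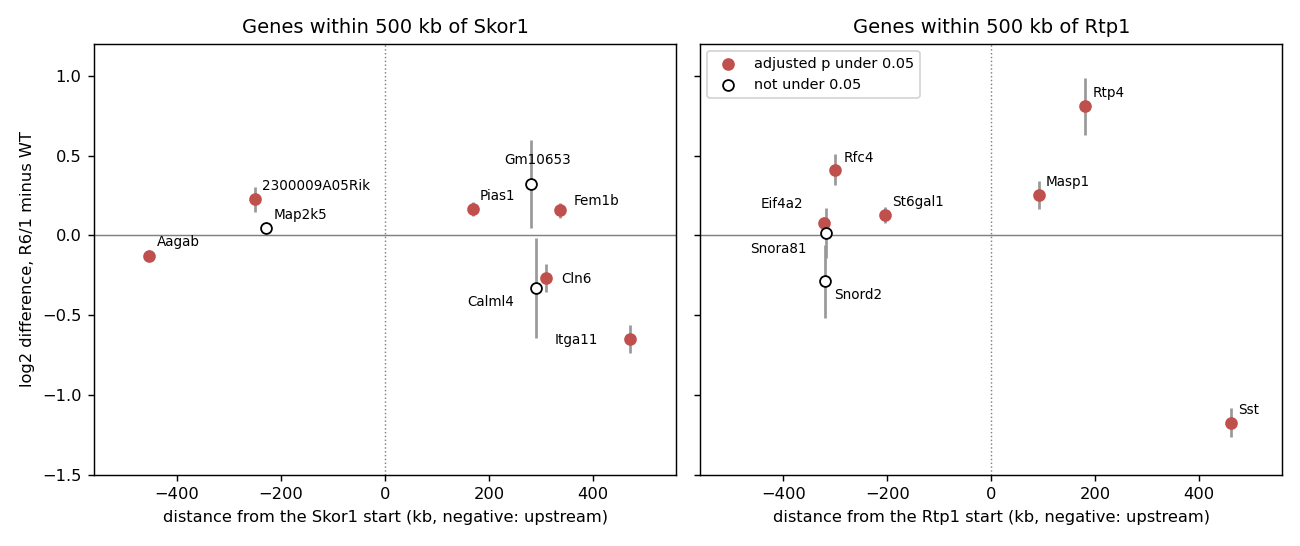
Difference in mean log2(RPKM + 0.5), R6/1 minus WT, of the tested genes within 500 kb of Skor1 (left, 9 genes) and Rtp1 (right, 8 genes) against the distance of their start, with the standard error; filled points had a limma adjusted p under 0.05. All but 3 of the points, Itga11, Rtp4 and Sst, lie within 0.5 of 0.

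The position of both genes relative to the nuclear lamina was read from the deposited lists of lamin B1 domains, long stretches of chromatin bound by this lamina protein, 1 list per genotype. Neither start lay in a domain of either genotype. The same holds for most genes, since 12.9% of the tested genes that could be placed started in a WT domain and 7.89% in an R6/1 domain. Domains were few on these chromosomes. Chromosome 9 had 5 in WT and 6 in R6/1, and chromosome 16 had 2 in each genotype. The nearest domain edge was 17.4 Mb from the Skor1 start in both genotypes, at 80364001 on chromosome 9. For Rtp1 it was 22.7 Mb away in WT, at 46102001 on chromosome 16, and 23.2 Mb away in R6/1, at 46657001. Of the tested genes that could be placed, 87.8% lay nearer to a WT domain than Skor1 did and 92.0% nearer than Rtp1. In R6/1 the shares were 90.9% and 93.8%. Since each genotype has 1 list, these distances have no replicate spread.

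The pathway in which Ski family proteins act was then surveyed. Ligands of the BMP and TGF-beta family bind paired receptors, receptors activate Smad proteins, extracellular inhibitors trap the ligands, and Ski proteins silence Smad targets. Over this pathway and the olfactory genes described after it, 80 genes in 10 lists were tested, and 15 rose and 32 fell, together 58.8% against 48.3% of all tested genes. Their median log2 difference was -0.10, against 0.00363 over all tested genes. The genotypes did not overlap for 14 of these 80 genes, and for 11.9% of all tested genes, in either direction.

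Among the 14 genes listed as ligands, which include the protease gene Bmp1, 1 rose and 6 fell (median log2 difference -0.24). Tgfb2 fell from 16.0 ± 3.71 to 8.47 ± 1.69 RPKM and Gdf11 from 6.24 ± 0.942 to 3.99 ± 0.396 RPKM, both without overlap. Bmp1, which codes for a protease that processes matrix proteins and a BMP inhibitor, fell from 9.26 ± 2.05 to 5.33 ± 0.507 RPKM. Bmp2, Inhba and Gdf10 also fell, and Tgfb3 rose from 3.57 ± 0.651 to 4.42 ± 0.443 RPKM. Bmp4 was at 0.918 ± 0.234 RPKM in WT and 0.852 ± 0.193 in R6/1 and did not pass.

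Among the receptors, 1 of 12 rose, 5 fell and 6 did not pass (median log2 difference -0.07). Bmpr2, the type II BMP receptor, rose from 30.7 ± 2.63 to 34.4 ± 2.20 RPKM. Acvr1, Acvr2b, Bmpr1b, Tgfbr2 and Acvrl1 fell, by 0.20 to 0.35 on the log2 scale. The calls of Tgfbr2 and Acvrl1 were lost under scaling by each library's own read total (limma adjusted p 0.196 and 0.159), and also with quantile normalization and without the filter on low values. Under the own-total scaling the gene Bmpr1a and the gene Acvr1b passed as higher (limma adjusted p 0.000759 and 0.000793).

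Of 9 tested genes listed as extracellular inhibitors, which include the decoy receptor gene Bambi, 8 fell and 1, Twsg1, rose (median log2 difference -0.66). Chrd, the gene of the BMP trap chordin, fell from 17.0 ± 3.45 to 8.92 ± 0.920 RPKM and Nbl1 from 49.2 ± 14.0 to 24.5 ± 3.61 RPKM, both without overlap. Bambi, a decoy receptor, fell from 1.31 ± 0.322 to 0.525 ± 0.0631 RPKM, Grem1 from 1.06 ± 0.230 to 0.443 ± 0.170 RPKM and Chrdl1 from 1.25 ± 0.283 to 0.598 ± 0.105 RPKM, all 3 without overlap. Grem1 passed the filter of 0.5 RPKM only through its WT level. Nog, the noggin gene, fell from 3.59 ± 0.599 to 2.43 ± 0.504 RPKM. Fstl1 fell by 0.12 on the log2 scale. The call of Fstl1 was lost under scaling by each library's own read total (limma adjusted p 0.423). Fst, the follistatin gene, was below the filter, at 0.507 ± 0.120 RPKM in WT and 0.0882 ± 0.0552 in R6/1 with no overlap.

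Of the 8 Smad genes, 5 rose and 2 fell (median log2 difference 0.21). The BMP effectors Smad1, Smad5 and Smad9 rose by 0.25, 0.20 and 0.34 on the log2 scale, Smad9 from 3.60 ± 0.312 to 4.68 ± 0.329 RPKM without overlap. The TGF-beta effector Smad2 rose from 4.50 ± 0.459 to 5.72 ± 0.279 RPKM while its partner Smad3 fell as given above. The common partner Smad4 rose from 14.3 ± 1.22 to 16.8 ± 0.638 RPKM, and the inhibitory Smad7 fell by 0.16 on the log2 scale, a call lost under scaling by each library's own read total (limma adjusted p 0.145).

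Of 11 tested Smad target genes, 5 fell and 6 did not pass (median log2 difference -0.15). They were Id2, Id4, Smad7, Hey1 and Skil. Hey1, a Notch and BMP target, fell by 0.44 on the log2 scale without overlap, and Id2 from 58.1 ± 7.48 to 43.6 ± 6.35 RPKM. Id1 and Id3, the usual readouts of BMP signalling, did not pass, at 9.44 ± 1.52 and 30.5 ± 4.16 RPKM in WT and 8.99 ± 1.49 and 30.2 ± 1.69 RPKM in R6/1. The call of Id4 was lost under scaling by each library's own read total (limma adjusted p 0.281), and also with quantile normalization and without the filter on low values.

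Among the relatives of Skor1, Skor2, its closest relative and a Purkinje cell gene, had 0 reads in all 18 libraries. Ski fell from 37.8 ± 2.05 to 33.2 ± 1.40 RPKM and Skil from 14.3 ± 1.19 to 12.1 ± 1.03 RPKM. Dach1 was at 1.54 ± 0.218 RPKM in WT and 1.48 ± 0.149 in R6/1 and Dach2 at 0.147 ± 0.0510 and 0.140 ± 0.0530 RPKM. Of the co-repressor partners, Hdac2 and Sin3a rose, by 0.22 and 0.21 on the log2 scale, while Hdac1, Hdac3 and Ncor1 were among the 4 that did not pass. Lbx1, the spinal partner, had 0 reads in all WT libraries and 27 reads over the 9 R6/1 libraries, at 0.218 ± 0.144 RPKM.

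Dorsal spinal interneurons are cells in which Skor1 is known. Of 11 of their markers, 1 passed the filter, Pax2, which itself was chosen by its level above. Their summed RPKM was 0.251 to 0.634 in WT and 6.02 to 10.0 in R6/1, with Pax2 alone at a mean of 0.111 RPKM in WT and 7.03 in R6/1. Tlx3 had 0 reads everywhere, and Ptf1a, Pax8, Lhx1, Lhx5, Gbx1, Lmx1b and Prrxl1 had means of at most 0.122 RPKM in both genotypes. Slc6a5, the glycine transporter, had 2 reads in WT and 52 in R6/1, at 0.217 ± 0.217 RPKM, and was below the filter. Its libraries did not overlap, but the gap lay near the floor. The highest WT library had 0.0496 RPKM, and the R6/1 libraries ran from 0.0855 to 0.774 RPKM. All R6/1 libraries lay above all WT libraries for 5.5% of the tested genes. Of 7 Purkinje cell markers, 4 passed the filter and all 4 fell. They include Itpr1 and Calb1, at 68.5 and 34.8 RPKM in WT, which hippocampal neurons also express.

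The tissue itself carried its own markers in both genotypes. All 9 markers of hippocampal pyramidal and granule neurons were tested and all 9 fell, with a summed RPKM of 417.8 to 547.3 in WT and 193.2 to 247 in R6/1. All 6 astrocyte markers, 5 of 7 inhibitory neuron, 4 of 6 oligodendrocyte, 3 of 6 microglia and 1 of 5 endothelial markers fell. The others of these lists did not pass. Over all tested genes, 23.5% were called as lower in R6/1. The 7 choroid plexus markers did not pass either (limma adjusted p 0.201 or more). Summed choroid plexus markers ran from 26.5 to 1083 RPKM in WT and from 41.2 to 1756 RPKM in R6/1. Their r with Skor1 was 0.14 and with Rtp1 0.49 within R6/1 (adjusted permutation p 0.793 and 0.373). The part of any change in cell makeup in the levels of Skor1 and Rtp1 was not tested.

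Among the relatives of Rtp1, Rtp2 was at 0.0747 ± 0.0635 RPKM in WT and 0.0147 ± 0.0193 in R6/1 and Rtp3 at 0.331 ± 0.0821 and 0.252 ± 0.148 RPKM, both below the filter. Rtp4 rose as given above. Of the Reep genes, which code for membrane proteins that shape the endoplasmic reticulum, Reep5 rose from 156.2 ± 13.3 to 170.5 ± 8.77 RPKM, Reep2 fell from 50.5 ± 1.95 to 45.5 ± 3.06 RPKM, and Reep1, Reep3, Reep4 and Reep6 did not pass. The call of Reep2 was lost under scaling by each library's own read total (limma adjusted p 0.0836).

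Odorant receptors are the proteins that Rtp1 carries to the cell surface. The table lists 1125 genes with symbols starting in Olfr, pseudogenes included, of which 972 had 0 reads in all libraries and 7 passed the filter. The summed RPKM of the 1125 genes was 33.2 to 49.3 in WT and 27.4 to 37.7 in R6/1. A large part came from Olfr856-ps1, a pseudogene by its symbol, with means of 18.6 RPKM in WT and 16.3 in R6/1. The sum is therefore not a measure of receptor proteins. Of the 7, Olfr1344 fell from 0.696 to 0.373 RPKM (limma adjusted p 0.00327) and 6 did not pass. Olfr1344 passed the filter of 0.5 RPKM only through its WT level. Of 8 tested genes of olfactory signal transduction, 2 rose and 4 fell (median log2 difference -0.15). Ric8b, an exchange factor for the olfactory G protein, rose from 7.91 ± 0.429 to 10.5 ± 0.658 RPKM without overlap, and Adcy3, the olfactory adenylate cyclase that neurons also carry in their primary cilia, rose from 10.5 ± 0.861 to 13.4 ± 1.14 RPKM. Slc24a4 fell from 10.8 ± 1.24 to 6.82 ± 0.938 RPKM without overlap, Stoml3 from 1.01 ± 0.517 to 0.238 ± 0.171 RPKM, and Gng13 and Ano2 fell as well, the gene Ano2 not under scaling by each library's own read total (limma adjusted p 0.0626) nor with quantile normalization (limma adjusted p 0.0686). Stoml3, too, passed the filter only through its WT level. Gnal, the olfactory G protein subunit, was at 26.0 ± 2.80 RPKM in WT and 25.0 ± 2.23 in R6/1 and did not pass. Omp, the marker of mature olfactory neurons, was at 0.234 ± 0.105 RPKM in WT and 0.193 ± 0.0802 in R6/1, and the channel subunit Cnga2 had 23 reads in WT and 6 in R6/1. Of 5 tested regulators of olfactory neuron genes, Emx2 rose and Lhx2 fell, by 0.16 and 0.15 on the log2 scale, and Ldb1, Ebf1 and Ebf4 did not pass. The call of Lhx2 was lost under the same scaling (limma adjusted p 0.192), and that of the gene Emx2 without the filter on low values (limma adjusted p 0.0510).

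**Figure D5:**
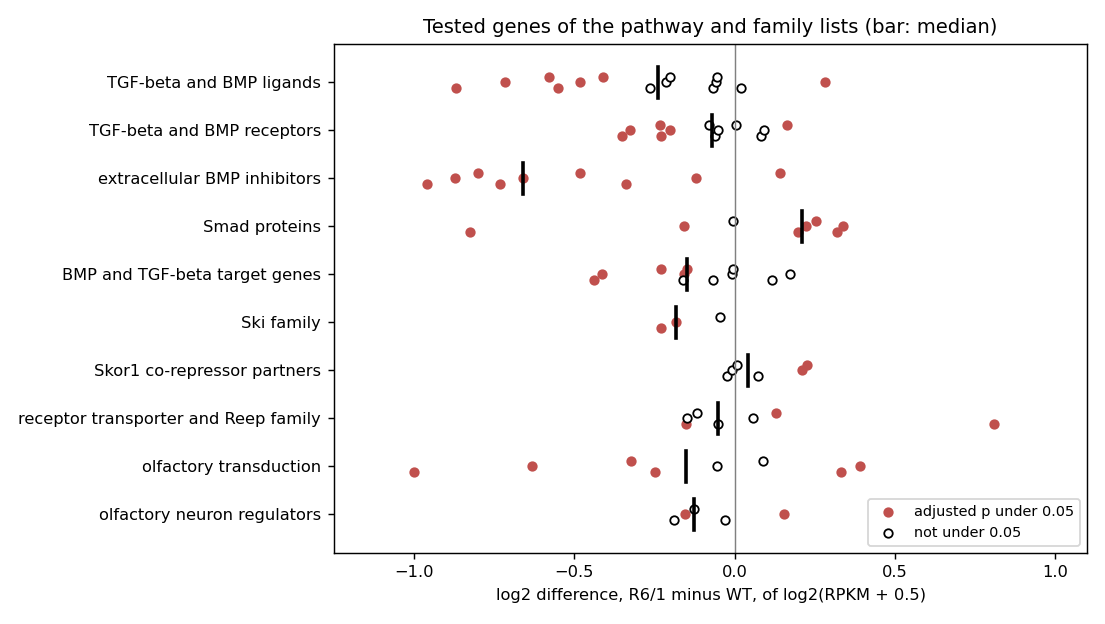
Difference in mean log2(RPKM + 0.5), R6/1 minus WT, of each tested gene of the 10 pathway and family lists, with the median of each list as a bar; filled points had a limma adjusted p under 0.05. The extracellular BMP inhibitors lie below 0 except Twsg1, and 5 of 8 Smad genes lie above 0 and passed.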

How the data were processed

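RNA-seq of 9 WT and 9 R6/1 hippocampal libraries was analysed, grouped by the genotype in the labels. The labels do not give the number of mice per RNA library. The lamin B1 ChIP reads and ATAC-seq were not analysed here. Skor1 and Rtp1, the lists and the alternatives were chosen with earlier results of these data known.

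The authors deposited RPKM values from stranded mRNA libraries. TopHat, DESeq2 and genome build mm9 are named in the submitters' processing notes, without role or version; the counter, its annotation and its use of strand are not given in the sources used here. The deposited comparison table gives, per gene, a mean normalized signal, a log2 fold change with its error, a test score and its p-value, raw and adjusted. The authors deposited lamin B1 domains as EDD lists with 1 score per domain; the score was not used.

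RPKM times the ratio of the deposited mean normalized signal to the mean RPKM gave whole multiples of 1 step per library for 99.87% to 99.91% of values (tolerance 0.05 of a read), and so the reads per gene. Intervals cover counting error only, and 0 reads allow up to 3. The 14446 genes whose mean reached 0.5 RPKM were tested with limma 3.58.1 (R 4.3.3; lmFit, eBayes with trend, two-sided) on log2(RPKM + 0.5), a scale that understates changes of low genes, with Benjamini-Hochberg adjustment over all of them and a threshold of 0.05. The fit and the permutation test were tested on simulated data. Correlations within a genotype used all 362880 pairings of 9 libraries (numpy 2.4.6, scipy 1.17.1). Named genes are Skor1 and Rtp1, genes within 500 kb, list genes past the threshold, relatives of both, the 5 highest and 5 lowest by r, and genes without overlap at up to 0.25 RPKM in the WT mean and 1 RPKM or more in the R6/1 mean. Other genes named were chosen after their values were seen. Positions come from GENCODE vM1 on NCBIM37, which matched 22109 gene symbols. Upstream sequence is RefSeq's for GRCm38.p6; 10 of the 13 other genes at the same levels had such a window, and Rtp1 had none. Columns left unused numbered 0. Results of some genes are not reported here.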

Additional observations from a re-analysis of the deposited data

Results flagged for a closer look

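In 54 groups of 9 libraries that were examined, the gap of the highest or lowest library to its neighbour passed Dixon's critical value in 7, and about 2.7 would by chance (1 group in 20). The causes were not tested.

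Of these, 2 concern Skor1 and Rtp1 themselves. In WT replicate 1, Rtp1 was at 0.277 RPKM, on 11 reads, with the next WT library at 0.142. In R6/1 replicate 5, Rtp1 was at 0.138 on the log2(RPKM + 0.5) scale, on 27 reads, with the next R6/1 library at 1.48. Skor1 had no library that stood apart in this way in either genotype.

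The others concern the genes around them. Rtp4 was at 2.45 RPKM in WT replicate 5, with the next at 1.02. Aagab was at 30.1 RPKM in WT replicate 1, with the next at 26.7. 2300009A05Rik was at 12.4 RPKM in R6/1 replicate 6, with the next at 9.46. Map2k5 was at 12.4 RPKM in R6/1 replicate 5, with the next lowest at 14.4. Snord2 was at 11.8 RPKM in R6/1 replicate 7, on 11 reads, with the next at 7.96.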

How the results depend on the processing

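The means of Skor1 and Rtp1 moved by less than 1 SD under scaling by each library's own read total, with quantile normalization and, in an alternative chosen after seeing the data, without R6/1 replicate 5. The count of 12 called neighbours was 4 of 5 tested within 250 kb, where fewer genes are in the window, and between 9 and 16 under the other alternatives; the count of 47 called list genes lay between 39 and 53. The relation of Skor1 with Rtp1 within R6/1 (r 0.691) was 0.571 on linear RPKM (permutation p 0.108), 0.675 with a pseudocount of 1 (permutation p 0.0504) and 0.313 without the 2 libraries farthest from the Skor1 median; without each R6/1 replicate in turn it ran from 0.0914 to 0.788. Within WT it ran from 0.853 to 0.930 without each replicate in turn; these and all WT alternatives were chosen after seeing the data. The labels do not say whether equal replicate numbers of the genotypes pair the libraries. Correlations of same-numbered libraries, taken as deviations from their genotype mean, ran from -0.0533 to 0.237. Of 18 libraries, 4 correlated best with their own number. These values do not settle whether the libraries are paired. With the replicate block 11 neighbours and 46 list genes were called; the calls of the gene Masp1 (limma adjusted p 0.0743), Ano2, Fstl1 and Tgfbr2 were not made, and Acvr1b and Reep3 were called. Among single neighbour and list genes, an alternative ended a call 25 times and made one 6 times, in 813 cases the call held or stayed missing, and no called value changed direction. WT levels rest on 33 and 45 reads, which limits every statement on WT.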
